A study of Gallus gallus with 6 samples.

Results

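The chicken Z chromosome is present in pairs in males and singly in females, which carry a W chromosome in its place. Birds do not silence or boost a whole sex chromosome as mammals do, and many Z genes are known to be transcribed at higher levels in male than in female cells, gene by gene and by less than the gene copy number. A set of 58 genes, listed as Z-linked with knowledge of earlier results from these data, was followed in cultured dermal myofibroblasts in 2 ways: replicate 2 of both treatment groups against replicates 1 and 3, and inhibitor against DMSO. By exact symbol 53 of the 58 had a probe set, and 49 of these passed the filter on low values (3 or more of the 6 arrays at a log2 value of 4 or above). NTRK2, NOL6, SNAPC3 and WDR7 stayed below the filter, and no probe set was named NIPBL, TOPORS, UBAP1, DCAF12 or ME2 here. The 49 stand among 8124 genes tested in the series.

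RNA came from cultures of dermal myofibroblasts, matrix-producing contractile fibroblasts grown from explanted skin of day 10 embryos of the brown Leghorn breed. One group of 3 cultures was treated with TGFBR1 Kinase Inhibitor II at 500 nM, which inhibits the receptor kinase TGFBR1 of the TGF-beta pathway, for 48 h, and the other 3 received the solvent DMSO alone at 0.1%. Both groups grew in medium that held chicken serum (2%) and fetal bovine serum (4%), and each culture was hybridised to 1 Affymetrix array. The labels give no sex for any culture and do not say whether embryos were pooled. All values below are log2 intensities, in which a difference of 1 is a 2-fold ratio.

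A gene table of assembly GRCg7b placed 52 of the 58 genes on Z. It placed SNAPC3 on chromosome 1 and DROSHA and BAG1 on chromosome 2, and it held no gene under the symbols NIPBL, DCAF12 and ME2. DCAF12 was there a synonym of DCAF12L2, a measured Z gene that is counted below among the other Z genes. The Z label thus held for 47 of the 49 measured genes, counting IPO11, whose brightest probe sets were placed by symbol because their gene identifier was not in the table. Fibroblast genes were bright (array means over a list of 12, 13.0 to 13.3), while melanocyte and skeletal muscle markers lay below 4 in all arrays. Array means over 5 myofibroblast genes were 12.0 to 12.9, with ACTA2 the dimmest of them at 6.88 to 8.11. Other cell type lists, some with genes above 4, are given further below. The cultures differed beyond the Z. With Z and W probe sets left out, the second principal component still held 17.1% of the variance. It separated both replicate 2 arrays from the other 4. The third held 14.9% and separated both replicate 1 arrays from both replicate 3 arrays, so those cultures also differed from each other. Across probe sets, the departure of an array from its group's mean correlated with that of the other group's array of the same number (r of 0.63, 0.67 and 0.45 for numbers 1, 2 and 3). Replicate 2 was therefore handled as 1 culture under both treatments, and its differences are given with no test.

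Most W genes with a readable signal, from the chromosome that chicken males lack, were read in the replicate 2 arrays and not in the other 4. HINTW, a W-linked relative of the HINT nucleotide hydrolases, read 1.97, 14.56 and 1.97 in DMSO replicates 1, 2 and 3 and 1.98, 14.31 and 1.92 in inhibitor replicates 1, 2 and 3. HNRNPKL, the W relative of HNRNPK, read 9.62 and 9.75 in the replicate 2 arrays of DMSO and inhibitor by one probe set, and 2.88 to 3.13 in the other 4 arrays. For UBE2R2L, the relative of UBE2R2, the replicate 2 values were 7.99 and 8.76, against 2.18 to 2.24. These probe sets were bright in both replicate 2 arrays and among the dim probe sets elsewhere.

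Further W genes showed the same pattern. SPIN1L, a relative of the histone reader SPIN1, read 8.18 and 8.50 in replicate 2 and 2.89 to 3.13 elsewhere; LOC374195, which the table gives the synonym CHD1W, 8.22 and 8.35 against 2.74 to 2.89; and UBAP2L2, the relative of UBAP2, 5.58 and 5.74 against 2.29 to 2.48. In the replicate 2 arrays LOC430910 read 9.99 and 9.96, LOC107049459 9.48 and 9.45, LOC427010 6.17 and 6.25 and LOC431003 6.03 and 6.10, and one probe set of LOC426615 read 8.18 and 8.25. In all, 20 of 39 probe sets of 17 W genes were at 4 or more in both replicate 2 arrays (4.34 to 14.56) and below 4 in all others (1.92 to 3.57), and they covered 11 genes. Another 8 probe sets were below 4 in all arrays, among them both of LOC427025, which carries the synonym NIPBL, and 5 had mixed readings, among them 1 of UBAP2L2 that passed 4 in inhibitor replicate 3 alone (4.15).

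The remaining 6 probe sets, 5 of the ubiquitin ligase gene NEDD4L and 1 of the methyl-DNA binding protein gene MBD2, were at 4 or more in all 6 arrays although the table places both genes on W. MBD2 read 10.36, 10.09 and 10.30 in DMSO and 10.73, 10.39 and 10.46 in inhibitor arrays, and a NEDD4L probe set 10.22, 9.15 and 9.75 in DMSO and 9.74, 9.03 and 9.33 in inhibitor arrays. Both were lowest in replicate 2, opposite to the W probe sets read in the replicate 2 arrays alone. Both were also bright in replicates 1 and 3, where those W probe sets stayed below 4. Their signal thus did not follow the table's placement on W. The plot of W probe sets and of Z medians by array shows the contrast between the numbers.

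**Figure D1:**
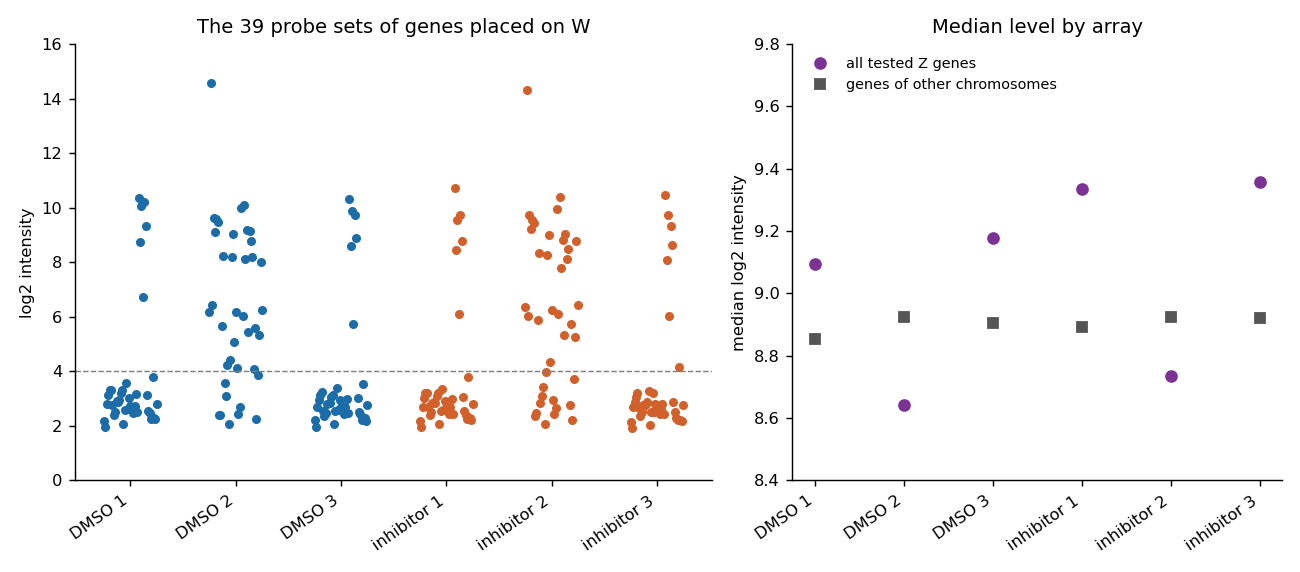
Left, log2 intensity (y axis) of all 39 probe sets of genes placed on W, 1 point per probe set, in each of the 6 arrays (x axis; blue DMSO, orange inhibitor; dashed line, log2 value of 4); only the 6 probe sets of NEDD4L and MBD2 are above 4 in every array, and 20 others pass 4 in both replicate 2 arrays alone. Right, median log2 intensity of all 399 tested Z genes and of 7712 genes of other chromosomes per array; the Z medians of DMSO 2 (8.64) and inhibitor 2 (8.73) are below those of the other 4 arrays (9.09 to 9.36), and the other chromosomes stay between 8.85 and 8.93.

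Most of the listed Z genes were lower in replicate 2, and by less than 2-fold. The replicate 2 value minus the mean of replicates 1 and 3, taken within each group and then averaged, had a median of -0.31 over the 49 genes (quartiles -0.58 and -0.05), and of -0.32 over the 47 on Z, with replicates 1 and 3 higher. Replicate 2 was the lowest of the 3 in both groups for 29 of the 49, against 18.1% of all tested genes, and the highest in both for 6, against 24.5%. All 29 and all 6 were on Z. It was lowest in both groups and lower by 0.32 or more on the log2 scale for 24 (10.1% of all tested genes), and 4 were at -1 or below. Among all 8124 tested genes 147 were at -1 or below, as were 41 of the 352 other tested Z genes. Within DMSO arrays the median was -0.29 and within inhibitor arrays -0.30, and 34 genes were lower in both groups, 10 higher in both and 5 of mixed sign. Averaged over the groups, the difference was negative for 37 of the 49, against 3581 of all 8124 tested genes. In bulk RNA, fewer cells of a type and less RNA per cell cannot be told apart, and with 1 culture, sex and any other property of replicate 2 cannot be told apart either. Whether replicate 2 also held cells without a W was not tested. The size of these differences can therefore not be read as a ratio between female and male cells.

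The spread between the other cultures gives the scale of these differences. Replicate 1 minus replicate 3, averaged over the groups in the same way, had a median of 0.08 over the 49 genes, and the median of its size was 0.16. The replicate 2 difference was the larger of the 2 in size for 38 of the 49, against 51.8% of all tested genes. Both genes that the table places on chromosome 2 differed less than that spread: DROSHA, the nuclease that starts microRNA processing, at 0.04 (replicate 1 minus 3, 0.09) and BAG1, a cochaperone of HSP70, at 0.08 (0.23).

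**Figure D2:**
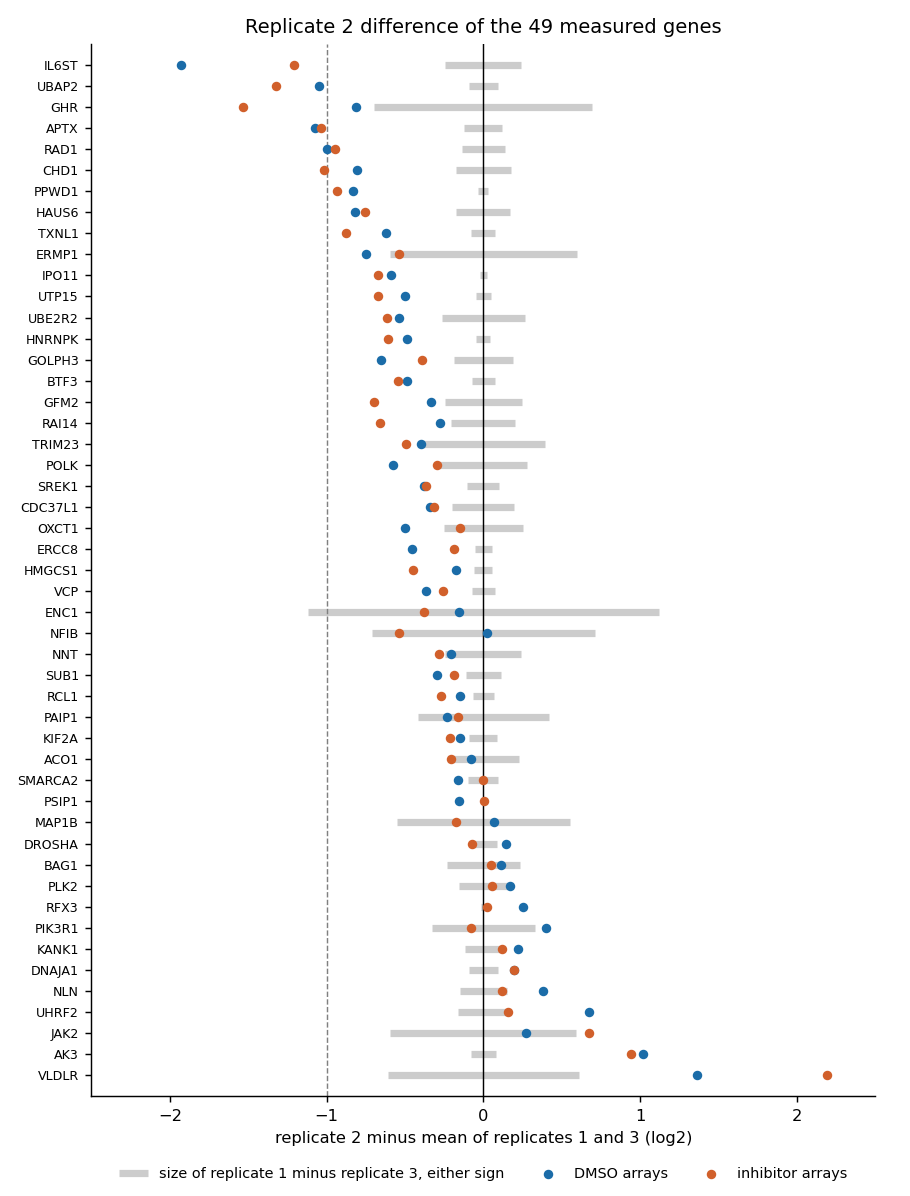
Replicate 2 minus the mean of replicates 1 and 3 (x axis, log2) for each of the 49 measured genes (y axis), in DMSO arrays (blue) and inhibitor arrays (orange); grey bars span the size of replicate 1 minus replicate 3 in either direction, and the dashed line marks a 2-fold lower value. IL6ST, UBAP2, GHR and APTX average -1 or below, and VLDLR and AK3 stand at the other end.

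The median over the rest of the Z was further below 0. The 352 other tested Z genes had a median of -0.56 (ratio 1.47; quartiles -0.80 and -0.21), with replicate 2 lowest in both groups for 257, or 73.0%, and highest for 20. Over the 7712 genes of other chromosomes the median was 0.04, with replicate 2 lowest for 15.4% and highest for 25.4%. Replicate 1 minus replicate 3 gave medians of -0.02 and -0.03 over the same 2 sets. The median over the other Z genes was -0.50 in DMSO and -0.56 in inhibitor arrays.

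**Figure D3:**
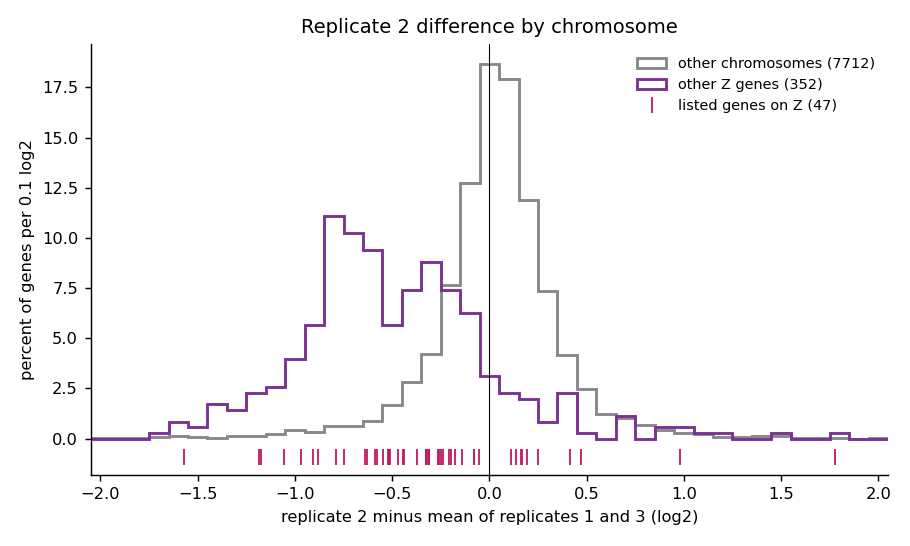
Percent of genes per 0.1 log2 (y axis) by replicate 2 difference (x axis, log2) for 7712 genes of other chromosomes (grey) and 352 other Z genes (purple), with the 47 measured listed genes on Z as ticks; values beyond the axis ends are not drawn. Other chromosomes centre at 0.04, the other Z genes at -0.56, and the ticks spread over both ranges from -1.57 to 1.78.

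The 4 genes with a relative of the same name on W were all lower in replicate 2, as were 307 of the 352 other tested Z genes. UBAP2, a ubiquitin-associated protein, read 9.09, 8.13 and 9.26 in DMSO replicates 1, 2 and 3 and 9.34, 8.02 and 9.35 in inhibitor replicates 1, 2 and 3, a difference of -1.18 (2.27-fold lower; replicate 1 minus 3, -0.09). The chromatin remodeller CHD1 read 8.17, 7.31 and 8.06 in DMSO and 8.18, 7.05 and 7.94 in inhibitor arrays (-0.91, 0.18). Both cultures without W signal lay well above replicate 2 for these genes. UBE2R2, a ubiquitin-conjugating enzyme, read 10.71, 10.24 and 10.83 in DMSO and 11.30, 10.88 and 11.71 in inhibitor arrays (-0.58, -0.27), and HNRNPK, an RNA- and DNA-binding protein, 12.67, 12.17 and 12.65 in DMSO and 12.61, 12.06 and 12.72 in inhibitor arrays (-0.55, -0.05). Whether these probe sets also bind the W transcripts was not tested; without the 4 genes the median over the remaining 45 was -0.27.

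Among other Z genes known to have a W relative, 5 were tested. SMAD2, which carries the TGF-beta signal to the nucleus, stood at -1.08 (10.02, 9.21 and 10.39 in DMSO and 10.99, 10.24 and 11.81 in inhibitor arrays), ZNF532 at -0.92, RASA1, a GTPase-activating protein for Ras, at -0.90 and SPIN1 at -0.76. ARRDC3, close to the floor at 4.01 to 4.24, stood at -0.07. Replicate 2 was lowest in both groups for the first 4 of these, against 73.0% of the other Z genes.

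The 4 genes of DNA repair and checkpoint control were all lowest in replicate 2 under both treatments, against 73.0% of the other Z genes. APTX, which removes failed ligation intermediates from DNA ends, read 8.76, 7.73 and 8.85 in DMSO replicates 1, 2 and 3 and 8.64, 7.68 and 8.80 in inhibitor replicates 1, 2 and 3 (-1.06, 2.08-fold lower; replicate 1 minus 3, -0.12). RAD1, a subunit of the 9-1-1 checkpoint clamp, read 9.66, 8.60 and 9.53 in DMSO and 9.01, 7.995 and 8.87 in inhibitor arrays (-0.97, 0.14). For both, each replicate 2 value lay about a full log2 unit below its neighbours. The translesion polymerase POLK stood at -0.44 and ERCC8, a factor of transcription-coupled repair with values near 4, at -0.32. The roles given here and below are those of the mammalian proteins.

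Genes of receptors and signalling held the extremes in both directions. IL6ST, the gp130 chain shared by receptors of the interleukin-6 family, read 5.77, 3.66 and 5.41 in DMSO replicates 1, 2 and 3 and 6.61, 5.35 and 6.49 in inhibitor replicates 1, 2 and 3, the lowest difference among the listed genes at -1.57 (2.97-fold lower; 0.24 between replicates 1 and 3), with DMSO 2 below 4, where values crowd at a floor. The growth hormone receptor GHR read 7.70, 6.80 and 7.52 in DMSO and 9.56, 7.42 and 8.35 in inhibitor arrays (-1.17), with replicates 1 and 3 themselves 0.70 apart. VLDLR, a receptor for lipoproteins and reelin, went the other way at 5.87, 7.09 and 5.58 in DMSO and 5.53, 7.25 and 4.60 in inhibitor arrays, a difference of 1.78 (3.43-fold higher; 0.61). The 2 replicate 2 values of VLDLR did not overlap the other 4. JAK2, the kinase that acts below such cytokine receptors, read 5.67, 5.55 and 4.89 in DMSO and 5.31, 5.78 and 4.90 in inhibitor arrays, a difference of 0.47, less than its spread of 0.59, and PIK3R1, the regulatory subunit of PI3-kinase, at 0.16.

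Genes of RNA processing, ribosome assembly and translation were mostly lower in replicate 2. PPWD1, a spliceosome-associated prolyl isomerase, read 10.80, 9.92 and 10.70 in DMSO and 10.74, 9.82 and 10.77 in inhibitor arrays (-0.88, 0.03). UTP15, which acts in ribosomal RNA processing, stood at -0.59, the splicing regulator SREK1 at -0.37, RCL1, another ribosomal RNA factor, at -0.21 and PAIP1, a partner of poly(A)-binding protein, at -0.20. For SREK1, which has 6 tested probe sets, all 6 were negative, from -0.61 to -0.17. Replicate 2 was lowest in both groups for 5 of the 7 tested genes of this role, against 73.0% of the other Z genes. PAIP1 and DROSHA were the exceptions, and DROSHA is not placed on Z by the gene table.

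Among cytoskeletal and mitotic genes, HAUS6, a subunit of the augmin complex of the spindle, had the largest difference. It read 12.22, 11.20 and 11.83 in DMSO and 11.95, 11.22 and 12.01 in inhibitor arrays (-0.79, 0.17), and its 3 probe sets ranged from -0.79 to -0.35. RAI14, an actin-associated ankyrin protein, stood at -0.47 and the microtubule depolymerase KIF2A at -0.18. MAP1B, a microtubule-associated protein (-0.05), ENC1, an actin-binding kelch protein (-0.27), and the polo-like kinase PLK2 (0.11) differed by less than replicates 1 and 3 did. KANK1, which links adhesions to the cell cortex, stood at 0.17 against -0.11. For MAP1B, ENC1 and KIF2A a dimmer probe set gave -0.87, -0.99 and -0.73, so the size of these differences depends on the probe set. Dimmer PLK2 probe sets gave 0.29 and 0.35, slightly above replicate 1 minus replicate 3 (0.27 and 0.34).

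The 4 tested genes of transport and membrane were all lowest in replicate 2 in both groups, against 73.0% of the other Z genes. TXNL1, a thioredoxin-like protein, read 13.91, 13.28 and 13.88 in DMSO and 13.53, 12.74 and 13.71 in inhibitor arrays (-0.75, -0.08), and ERMP1, a metallopeptidase of the endoplasmic reticulum, 4.57, 3.61 and 4.14 in DMSO and 4.78, 3.86 and 4.01 in inhibitor arrays (-0.64, 0.59). The TXNL1 values of replicate 2 lay below all others, as did those of ERMP1, which was near the floor and spread nearly as widely between replicates 1 and 3. The nuclear import receptor IPO11 stood at -0.63 and GOLPH3, which shapes the Golgi, at -0.52, against -0.02 and 0.19 between replicates 1 and 3.

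Metabolic and proteostasis genes were mixed. AK3, the adenylate kinase of the mitochondrial matrix, was higher in replicate 2 at 7.78, 8.74 and 7.65 in DMSO and 8.04, 8.97 and 8.01 in inhibitor arrays, a difference of 0.98 (1.97-fold; 0.08), without overlap of the replicate 2 values with the others. The mitochondrial elongation factor GFM2 stood at -0.51, the ketone body enzyme OXCT1 at -0.32, the cholesterol synthesis enzyme HMGCS1 at -0.31, NNT, which makes mitochondrial NADPH, at -0.25 and the cytosolic aconitase ACO1 at -0.14. Neurolysin, NLN, a peptidase (0.25), and DNAJA1, a cochaperone of HSP70 (0.20), were highest in replicate 2 in both groups, DNAJA1 with 11.77, 11.92 and 11.68 in DMSO and 11.24, 11.58 and 11.52 in inhibitor arrays. The ubiquitin ligase TRIM23 (-0.45), the HSP90 cochaperone CDC37L1 (-0.33) and the segregase VCP (-0.31) were lowest. TRIM23 was dim (4.57 to 5.42), with 0.39 between replicates 1 and 3. In DMSO, CDC37L1 was barely lowest, at 7.95 in replicate 2 and 7.97 in replicate 3. DNAJA1 and APTX, which follow each other in the order of measured Z genes, differed in opposite directions.

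Chromatin and transcription factors spanned the range from CHD1 at -0.91 to UHRF2, a ubiquitin ligase that reads modified DNA, at 0.42. UHRF2 read 7.25, 7.92 and 7.23 in DMSO and 7.99, 7.996 and 7.69 in inhibitor arrays, highest in replicate 2 in both groups, though by little in inhibitor arrays. BTF3, a subunit of the complex that binds nascent chains at the ribosome, stood at -0.52, the coactivator SUB1 at -0.24, nuclear factor NFIB at -0.26 (with -0.71 between replicates 1 and 3), the SWI/SNF ATPase SMARCA2 at -0.08, the chromatin-tethered coactivator PSIP1 at -0.08 and the ciliary transcription factor RFX3 at 0.14. Replicate 2 was lowest in both groups for CHD1, BTF3 and SUB1 alone among these 8, against 73.0% of the other Z genes.

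By their brightest probe sets, 3 listed genes were highest in replicate 2 in both groups and by 0.32 or more on the log2 scale. These were VLDLR, AK3 and UHRF2, which lay in 1 stretch of Z (such genes made up 10.2% of all tested genes). The dimmer probe set of DNAJA1, a gene outside the stretch, met the same rule at 0.47. It read 9.47, 9.75 and 9.15 in DMSO and 9.22, 9.73 and 9.23 in inhibitor arrays. In the gene table, KANK1, SMARCA2, VLDLR, RFX3, CDC37L1, AK3, RCL1, JAK2, ERMP1 and UHRF2 are the listed genes of this stretch, and DMRT1, the testis-determining gene of birds, lies between KANK1 and SMARCA2. As background, the male hypermethylated locus, which is methylated in males and transcribed into noncoding RNA in females, lies beside DMRT1, and genes around it are known for higher female expression than the rest of the Z. Over these 10 genes the median replicate 2 difference was 0.15 (-0.64 to 1.78), with replicate 2 highest in both groups for 4 (VLDLR, AK3, UHRF2 and RFX3) and lowest for 3 (CDC37L1, RCL1 and ERMP1). Outside the stretch, the 37 listed Z genes had a median of -0.44 (ratio 1.35), with replicate 2 lowest for 26 and highest for 2.

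The stretch was set after the values were seen, so this is a description with no test. The other 5 genes measured within it had a median of -0.21: GLIS3 stood at 0.31, LOC100858941 at -0.15, KIAA2026 at -0.21, PUM3 at -0.23 and RIC1 at -0.35. Over all 15 the median was -0.08, against -0.55 for the 20 measured genes before and -0.39 for the 20 after. High values were not limited to the stretch. Among unlisted Z genes, the rule that VLDLR, AK3 and UHRF2 met was met by 15 of 347 outside it and 0 of 5 within it. Among listed Z genes, read by their brightest probe sets, 3 of 10 within the stretch and 0 of 37 outside met the rule. FOXD1, which lies before the stretch and was chosen after its value was seen, was the highest of all 399 tested Z genes at 1.81. VLDLR and AK3 ranked 2 and 6 from the top. IL6ST ranked 4 from the bottom.

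**Figure D4:**
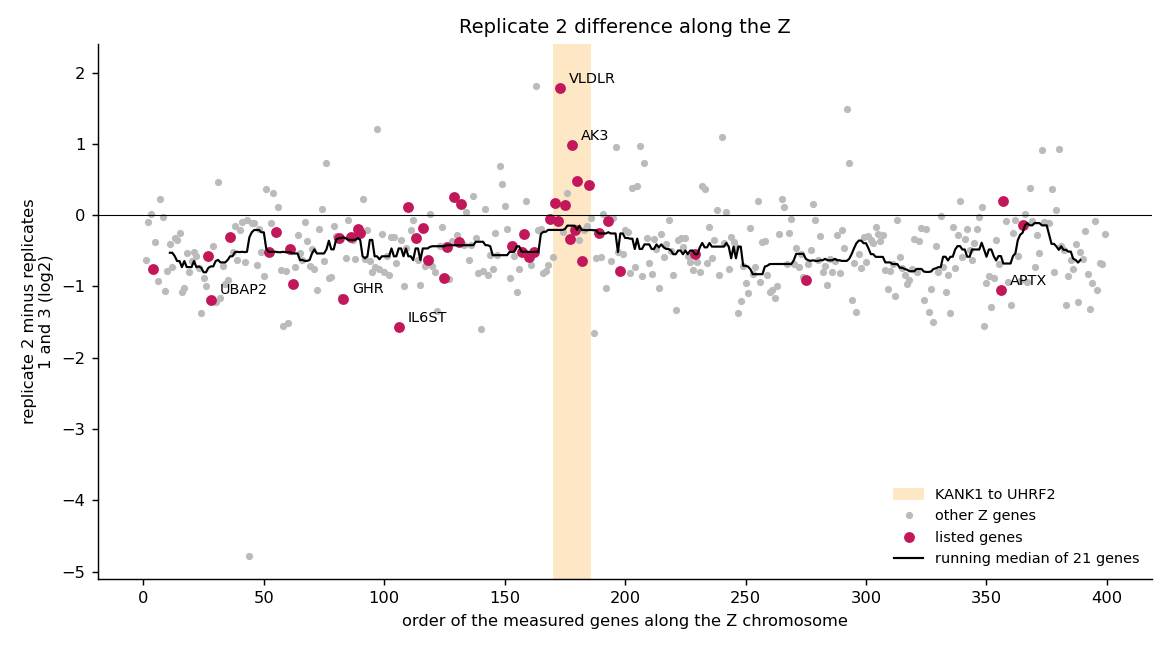
Replicate 2 minus the mean of replicates 1 and 3 (y axis, log2) for the 399 tested Z genes in their order along the chromosome (x axis, rank of measured genes, not distance); listed genes are in pink, others in grey, the line is a running median of 21 genes and the shaded band runs from KANK1 to UHRF2. The median of the band is -0.08, those of the 20 genes on each side are -0.55 and -0.39, and 1 unlisted gene lies at -4.78.

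With the inhibitor, the listed genes that changed most were PIK3R1, NFIB and ENC1, all of which rose. Of the 49 tested genes, 7 rose and 2 fell at a limma adjusted p under 0.05, against 8.17% and 7.5% of all tested genes, so that 18.4% were called against 15.7% of all tested genes. The median log2 difference of inhibitor minus DMSO was 0.01, and 0.01 over all tested genes. With the replicate number as a block, which removes the spread between cultures, 12 rose and 8 fell, against 16.5% and 15.2% of all tested genes (31.6% together). The inhibitor and DMSO arrays did not overlap for 15 of the 49, against 38.6%. Over the other Z genes 28 of 352 rose and 7 fell.

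PIK3R1 showed the largest rise. It read 8.12, 8.76 and 8.59 in DMSO replicates 1, 2 and 3 and 11.14, 11.16 and 11.33 in inhibitor replicates 1, 2 and 3, a difference of 2.72 ± 0.18 (SE, 3 arrays per group; 6.58-fold; limma adjusted p 0.000691), with all inhibitor arrays above all DMSO arrays, and its other tested probe set gave 2.42. NFIB read 9.24, 9.69 and 10.09 in DMSO and 11.93, 11.68 and 12.50 in inhibitor arrays, a rise of 2.36 ± 0.28 (5.15-fold; limma adjusted p 0.00435), and its 4 probe sets ranged from 2.36 to 2.63. SMARCA2 rose by 1.15 ± 0.10 (2.22-fold; limma adjusted p 0.00186), with 10.69, 10.57 and 10.78 in DMSO and 11.97, 11.83 and 11.69 in inhibitor arrays. The calls of these 3 genes held without any single array (limma adjusted p at most 0.0218) and without both replicate 2 arrays (at most 0.0366).

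ENC1 rose by 2.33 ± 0.45 (5.04-fold; limma adjusted p 0.0214), with 5.89, 4.82 and 4.06 in DMSO and 7.59, 7.01 and 7.18 in inhibitor arrays, but its dimmer probe set did not pass without the block (0.99 ± 0.49, limma adjusted p 0.239). RFX3 read 6.04, 6.29 and 6.03 in DMSO and 6.86, 6.90 and 6.89 in inhibitor arrays and rose by 0.77 ± 0.13 (limma adjusted p 0.0143). KANK1 read 7.01, 7.20 and 6.95 in DMSO and 7.61, 7.87 and 7.89 in inhibitor arrays and rose by 0.74 ± 0.14 (0.0199). The inhibitor arrays of these 3 genes lay above all DMSO arrays. NLN read 10.60, 10.90 and 10.43 in DMSO and 11.21, 11.26 and 11.07 in inhibitor arrays and rose by 0.54 ± 0.14 (limma adjusted p 0.0482). Without single arrays the call was lost for ENC1 (DMSO 2, inhibitor 1 or 3, limma adjusted p up to 0.0759), RFX3 (DMSO 1, DMSO 3 or inhibitor 1, up to 0.0626), KANK1 (any but DMSO 2 and inhibitor 1, up to 0.0802) and NLN (any but DMSO 2, up to 0.144). These fits with single arrays left out had no block. With the block and all arrays, all 4 passed (limma adjusted p 0.00422, 0.0114, 0.0113 and 0.00886).

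Both falls were small. NNT read 12.93, 12.48 and 12.44 in DMSO and 12.09, 11.81 and 12.09 in inhibitor arrays, a difference of -0.62 ± 0.16 (limma adjusted p 0.0472), and its dimmer probe set stood at -0.68 ± 0.19 (0.0619). PSIP1 read 11.63, 11.48 and 11.64 in DMSO and 11.27, 11.26 and 11.25 in inhibitor arrays, a difference of -0.32 ± 0.08 (0.0427), and its dimmer probe set stood at -0.41 ± 0.13 (0.0950). The inhibitor arrays of both genes lay below all DMSO arrays, yet each call was lost without any single array (limma adjusted p 0.0762 to 0.115 for NNT and 0.0551 to 0.133 for PSIP1). The fits with single arrays left out had no block and so ignored the pairing of the arrays. With the block and all arrays, both genes passed (limma adjusted p 0.0106 and 0.0228).

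Another 11 genes passed only with the replicate block. Of these 5 were higher with the inhibitor: IL6ST at 1.205 ± 0.61 (limma adjusted p 0.253 without and 0.011 with the block), GHR at 1.10 ± 0.54 (0.239 and 0.029), UBE2R2 at 0.70 ± 0.25 (0.116 and 0.00391), SUB1 at 0.34 ± 0.11 (0.104 and 0.011) and ACO1 at 0.29 ± 0.12 (0.175 and 0.0413). In each the difference was positive for all 3 replicate numbers, which passing with the block favours. The ± values here and in the next paragraph are SEs of the fit without the block. With the block the SE was 0.20 for IL6ST and 0.25 for GHR. The size differed most for GHR, at 1.85, 0.62 and 0.83 in replicates 1, 2 and 3, and for IL6ST, at 0.84, 1.69 and 1.08. The 1.69 of IL6ST rests on a DMSO 2 value of 3.66, below 4 where values crowd at a floor, so its size is uncertain.

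The other 6 were lower with the inhibitor. MAP1B read 6.80, 6.43 and 5.91 in DMSO and 5.69, 5.42 and 5.49 in inhibitor arrays (-0.85 ± 0.24; limma adjusted p 0.0696 without and 0.0236 with the block). RAD1 stood at -0.63 ± 0.37 (0.319 and 0.00573, with an SE of 0.086 in the blocked fit). Its differences were -0.64, -0.60 and -0.66 in replicates 1, 2 and 3. The RAD1 difference was thus nearly the same in all 3 pairs, although the level in replicate 2 was about a log2 unit below the others. UTP15 read 9.99, 9.42 and 9.86 in DMSO and 9.39, 8.73 and 9.43 in inhibitor arrays (-0.57 ± 0.24; 0.172 and 0.00958) and IPO11 11.78, 11.18 and 11.76 in DMSO and 11.36, 10.72 and 11.43 in inhibitor arrays (-0.40 ± 0.24; 0.334 and 0.00962). TXNL1 stood at -0.37 ± 0.29 (0.462 and 0.0252) and DNAJA1 at -0.34 ± 0.12 (0.113 and 0.0409). Dimmer probe sets did not all pass with the block. Of the other 3 tested for IPO11, one passed (-0.37 ± 0.27; limma adjusted p 0.431 without and 0.0205 with the block), one did not (-0.29 ± 0.26; 0.513 and 0.0505), and the one placed by gene identifier, near the floor, had the opposite sign (0.30 ± 0.29; 0.557 and 0.387). The other probe set of DNAJA1 stood at -0.06 ± 0.21 (limma adjusted p 0.882 and 0.679), whereas that of MAP1B passed with the block (-1.06 ± 0.40; 0.139 and 0.0339). For KIF2A the dimmer probe set alone passed with the block (-0.76 ± 0.35; limma adjusted p 0.205 and 0.0474). For the MAP1B call alone, leaving out 1 array, DMSO 3, gave a limma adjusted p under 0.05 without the block (0.0382).

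**Figure D5:**
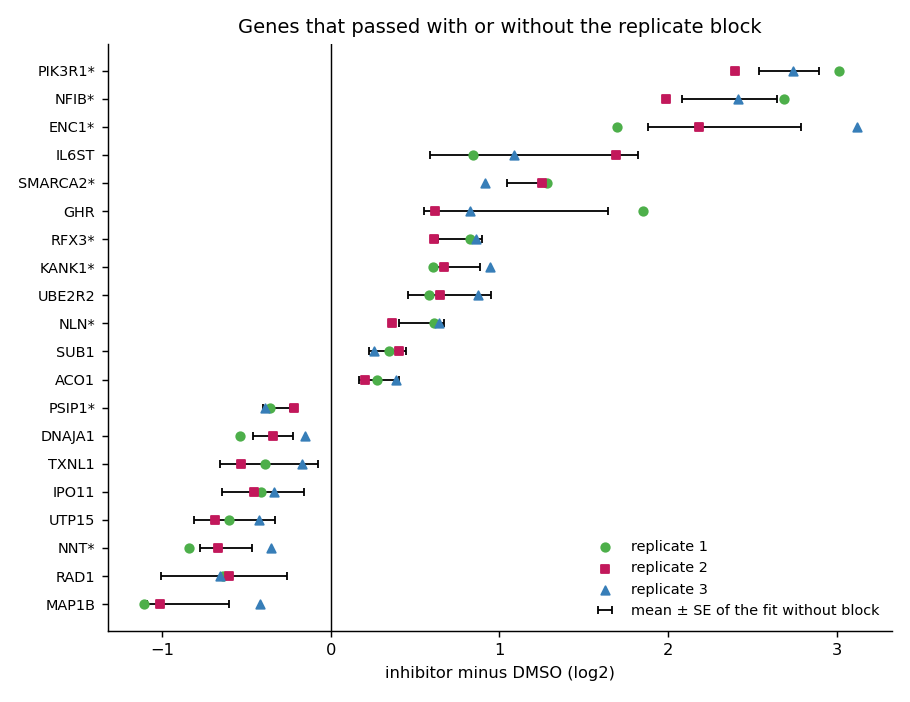
Inhibitor minus DMSO (x axis, log2) within replicate 1 (green circles), 2 (pink squares) and 3 (blue triangles) for the 20 listed genes that passed with the replicate block (y axis); black bars are the mean ± SE of the fit without the block, and asterisks mark the 9 genes that passed in it. For all 20 genes the 3 differences have the same sign, which passing with the block favours, and PIK3R1, NFIB and ENC1 lie farthest to the right. Among the listed genes on Z, passing or not, 32 had 3 differences of the same sign.

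Several genes with wide replicate 2 differences passed in neither fit of the inhibitor comparison. VLDLR stood at -0.38 ± 0.72 (limma adjusted p 0.778, and 0.286 with the block), AK3 at 0.28 ± 0.38 (0.678 and 0.0911), UBAP2 at 0.07 ± 0.45 (0.938 and 0.645), APTX at -0.07 ± 0.41 (0.935 and 0.623) and CHD1 at -0.12 ± 0.36 (0.867 and 0.476). IL6ST and GHR, also wide in replicate 2, passed with the block as given above. Pairs were also ranked with the sign kept, so that a larger fall counts as lower. The difference in the replicate 2 pair was the lowest of the 3 pairs for 22 of the 49 genes, the highest for 13 and in between for 14. These ranks do not give the size of the response, and the share over all tested genes is not given here.

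Markers of other cells and of RNA quality were set beside the replicate 2 values. Of 6 endothelial markers VWF read 4.98 and 4.46 in the replicate 2 arrays and 3.22 to 3.74 elsewhere, CDH5 passed 4 in inhibitor replicate 2 alone (4.03), PECAM1 (4.51 to 5.86) was highest in replicate 2 in DMSO and in the middle in inhibitor arrays, and KDR, TEK and EMCN were below 4 in all arrays. The mean of the list was 3.66 and 3.58 in replicate 2 and 3.11 to 3.38 elsewhere. The means of the keratinocyte (2.94 to 3.22), nerve (3.11 to 3.26) and blood lists (4.64 to 4.96) were also dim or mixed. Of these the nerve list alone had replicate 2 highest in both groups, by 1 gene, NEFL. Single genes were brighter than the means. In the blood list PTPRC read 7.30 to 8.73, CD74 5.31 to 6.52 and CSF1R 4.97 to 5.42, while SPI1 and LCP1 were below 4 in all arrays. In the keratinocyte list KRT14 read 4.75 to 6.00, and the other 4 genes on the array were below 4. Of 12 fibroblast genes 5 were lowest and 1 was highest in replicate 2 in both groups, and of 5 myofibroblast genes 1 and 0. The shares over genes of other chromosomes were 15.4% lowest and 25.4% highest. LUM differed most among these markers, at -1.32. For the ACTB controls, the 3′ probe set exceeded the 5′ one by 1.43 and 1.49 in replicate 2 and 1.37 to 1.65 elsewhere. Their part in the replicate 2 differences was not tested. Of 7 gonadal sex pathway genes on the array, only AMH passed the filter, and DMRT1 read 2.68 to 2.84.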

How the data were processed

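The authors deposited a log2 intensity for each probe set on each array. GCRMA, which corrects background, normalizes and summarises probes, and Partek 6.4 are named, per the submitters' processing notes, with settings not given in any source used. The log2 scale was read from the values (1.12 to 16.0). GCRMA gathers dim probe sets near 2 to 4, which hides differences there. The number of arrays limits the precision. Group and replicate number were read from titles. The titles call the replicates biological but do not say whether the cultures came from separate embryos. W probe sets were read in replicate 2 and not in replicates 1 and 3, so replicate 2 was not a technical repeat of those cultures. A p-value reflects only how these cultures vary.

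The table held 38535 probe sets, 96 of them controls (not tested), and 16567 reached a log2 value of 4 in 3 or more arrays. Names came from the platform annotation: 27178 probe sets had 1 symbol, 177 several and 11180 none. Chromosomes came from a gene table of GRCg7b by gene identifier (26863) or symbol (308). A gene was read by its brightest tested probe set. Inhibitor minus DMSO was fitted with limma 3.58.1 in R 4.3.3 (lmFit, eBayes with trend, two-sided, Benjamini-Hochberg over 16567 probe sets), without a replicate block. The code of this fit was run on simulated data whose noise was independent between arrays, unlike the real arrays. The blocked fit was not simulated. Every pair of same-numbered arrays deviated together (0.63, 0.67 and 0.45), so the numbers pair the samples and blocked values are given. Replicate 2 differences have no test. Listed genes, the replicate 2 contrast and all lists were chosen with earlier results of these data known. Values in every array are given for called genes, genes with a W relative and the widest replicate 2 differences (10 lowest, 6 highest). No sequences were used.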

Additional observations from a re-analysis of the deposited data

How the results depend on the processing

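The lower level of the listed genes in replicate 2 kept its direction under every alternative run (median -0.37 to -0.27 over the planned ones), and was -0.44 over Z genes outside the KANK1 to UHRF2 stretch, chosen after seeing the data. Values of 18 single genes kept their sign in all 212 alternatives. These genes were chosen for the widest replicate 2 differences or for a W relative, so a change of sign was unlikely from the start. For the other Z genes the median was -0.20 with no filter, which lets in genes at the floor, -0.58 with a log2 value of at least 6, -0.50 in DMSO arrays only and -0.57 to -0.51 without single arrays; for other chromosomes it was 0.00029 with no filter. Their genes with replicate 2 lowest numbered 2103 in DMSO and 2291 in inhibitor arrays only, where 1 group instead of both sets the rule, and 1434 to 2277 without single arrays. Inhibitor calls moved more. With the replicate block 12 listed genes rose and 8 fell, 20 in all, and no call made without it was lost; it called 2570 genes in all against 1273. No filter called 5.43% of all genes. With no filter 5 were called and 0 fell, with eBayes without trend 0 fell, and with the mean of a gene's probe sets 1 fell; 14 of 49 listed genes had an unadjusted limma p under 0.05 in the unblocked fit of all arrays, in either direction, as did 2619 of all 8124 tested genes. Without single arrays 4 to 6 were called, 4 to 6 of them up and 0 to 1 down, while 6.98% to 10.8% of all tested genes were called, against 15.7% with all arrays. Without both replicate 2 arrays, chosen after seeing the data, 3 were called (3 up, 0 down), and 6.09% of all tested genes. No unblocked call reversed its direction. Where calls were lost with all arrays kept, the cause was not tested.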
